A study of Rattus norvegicus with 11 samples.

Results

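The sensor channel genes described here are 10 genes of the rat bladder table, chosen by symbol from 3 families of ion channels: Trpv2, Trpv4, Trpm2, Trpm4, Trpm7 and Trpc1 of the TRP family, Piezo1 and Piezo2, and the acid-sensing channel genes Asic1 and Asic4. All 10 were found among the 18507 genes of the table. They were selected on earlier values of the same comparisons, so their differences between obstructed and normal bladders are given as a description and without a test. RNA-seq was performed on bladder tissues of female Sprague-Dawley rats with partial bladder outlet obstruction (PBOO; the labels read BOO model), in which a suture is tied around the bladder neck over a tube that is then withdrawn, and on normal bladders, whose rats had the abdominal incision only according to the methods. There were 3 PBOO and 3 normal samples at week 4, and 2 PBOO and 3 normal samples at week 5. The normal week 5 columns are named as adult samples, the PBOO week 5 columns carry the letters DO, and all week 4 columns carry the word Input. What these column names stand for is not stated. No agent or altered allele is named for any group. The labels call the samples replicates without naming the rats, and the discussion of the study calls them biological. The comparison of PBOO with normal bladders at each week addresses which genes differ while the wall thickens and in the following week.

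TRP channels are cation channels of 4 subunits that open on heat, swelling, lipid products, intracellular calcium or oxidative signals, depending on the member. Piezo channels open on stretch of the membrane, and acid-sensing ion channels of the ASIC family are sodium-permeable channels, most of which open on protons. In the bladder, such channels are known from the urothelium, the muscle and the sensory nerves, where filling opens them and leads to calcium entry and ATP release. ATP then acts on purinergic receptors of nerves and muscle.

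Expression is given in FPKM, fragments per kilobase of exon and relative to all fragments mapped, a unit scaled by gene length, so that levels of different genes within a sample can be set side by side. The number of reads behind each value is unknown. In the 3 normal bladders of week 4, Trpv4 had the highest mean, 22.7 ± 6.19 FPKM (SD, n = 3), followed by Trpm7 at 17.4 ± 1.84, Piezo1 at 15.1 ± 3.62 and Trpm4 at 12.9 ± 2.87 FPKM (SD, n = 3). The range of each gene in this series overlapped with that of the next, while all 3 Trpv4 values lay above all 3 Trpm4 values. Within each sample, Piezo1 was above Trpm4, at 19.2, 13.3 and 12.7 FPKM against 16.2, 11.6 and 10.98 FPKM. The order of Trpv4 and Trpm7, and of Trpm7 and Piezo1, changed between samples. Asic4 came next at 7.32 ± 1.90 FPKM (SD, n = 3), then Trpv2 at 3.91 ± 0.344 FPKM (SD, n = 3) and Trpc1 at 2.34 ± 0.301 FPKM (SD, n = 3), each apart from its neighbours in all 3 samples. Trpm2 and Asic1 lay below 1 FPKM and overlapped. In the PBOO bladders of week 5, Trpv2 and Trpm4 stood first, with means of 54.5 and 49.7 FPKM (n = 2), and Trpv2, Trpm4, Trpv4 and Piezo1 overlapped each with the next.

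Promoter windows of 7 of the 10 genes were found in RefSeq (assembly GRCr8), each running from 250 bases before to 50 bases after the start of the gene. No window was matched for Trpc1, Piezo1 and Asic4. The windows of Trpv2 (chr10:47771973-47772272, plus strand) and Trpm2 (chr20:10704222-10704521, plus strand) are shown because these genes had the same log2 difference at week 5 and the most similar patterns over the 11 samples. Capitals mark a GC box, GGGCGG on either strand.
Trpv2: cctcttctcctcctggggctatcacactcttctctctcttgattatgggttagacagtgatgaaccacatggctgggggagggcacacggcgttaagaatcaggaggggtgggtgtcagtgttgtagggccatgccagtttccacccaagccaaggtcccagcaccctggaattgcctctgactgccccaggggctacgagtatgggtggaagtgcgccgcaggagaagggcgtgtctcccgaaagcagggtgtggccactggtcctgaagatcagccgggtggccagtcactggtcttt
Trpm2: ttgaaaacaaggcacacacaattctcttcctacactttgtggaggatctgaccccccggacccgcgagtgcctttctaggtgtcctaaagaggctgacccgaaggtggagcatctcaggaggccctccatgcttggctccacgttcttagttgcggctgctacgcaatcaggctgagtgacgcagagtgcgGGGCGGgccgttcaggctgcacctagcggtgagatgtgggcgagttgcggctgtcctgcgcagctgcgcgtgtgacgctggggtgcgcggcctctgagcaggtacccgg
No GC box was found in the Trpv2 window and 1 in the Trpm2 window, at position -59 from the start, and 33.1% of all 33469 windows held at least 1. The window of Trpm2 had 61.7% G and C with 21 CpG pairs and that of Trpv2 58.7% with 8, against medians of 51.7% and 7 over all windows. Trpm4 had 3 GC boxes, Trpv4 and Asic1 had 2 each, and Trpm7 and Piezo2 had 1 each. The E-box CACGTG was found in Trpm7 alone, in 2 places, and in 6.42% of all windows. Neither the AP-1 sequence TGANTCA (7.33% of all windows), nor GAGGAAG, an ETS site of the PU.1 kind (12.4%), nor the CRE core TGACGTCA (1.83%) was found in any of the 7 windows. These motifs were searched on both strands, and a match is a run of letters, not a binding site.

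Some samples stood apart, and the tissue make-up differed between groups. In the PBOO bladders of week 5, the summed level of 10 smooth muscle markers was 1885 and 1005 FPKM, against 25540 to 29840 FPKM in the normal bladders of that week. All 10 genes were lower in both samples than in every normal sample. In this sense 25.0% of all genes were lower and 35.3% higher at week 5, to be set beside each count of that week. Of 9 fibroblast and interstitial markers, 7 were lower there and 1 was higher, with sums of 314 and 367 FPKM against 1524 to 1895 FPKM. Urothelial markers kept sums of 10580 and 11390 FPKM, against 8262 to 10850 FPKM, with 4 of 13 genes higher and 6 lower. At week 4, smooth muscle markers were instead higher in PBOO, at 52240 to 83240 FPKM against 26330 to 28580 FPKM. Of the 10 genes, 7 were higher and none lower, where 6.63% and 34.9% of all genes were. Urothelial markers summed to 4283 to 5415 FPKM at week 4, against 7147 to 9119 FPKM. Normal replicate 1 of week 4 held less of the leukocyte markers (249 FPKM, against 804 and 934 FPKM) and of the fibroblast and interstitial markers (1134 FPKM, against 3938 and 3970 FPKM) than the other normal samples. PBOO replicate 2 of week 5 had 2381 FPKM of leukocyte markers, against 561 FPKM in replicate 1. The sources used here do not say which part of the bladder wall was taken, and every difference at week 5 stands beside this near lack of smooth muscle markers. In bulk tissue, fewer cells of a type and less RNA per cell cannot be told apart. In addition, 4871 genes were listed at 0 in every week 4 sample, 62 of which averaged 100 FPKM or more at week 5, so that a 0 at week 4 is only a listed value.

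**Figure D1:**
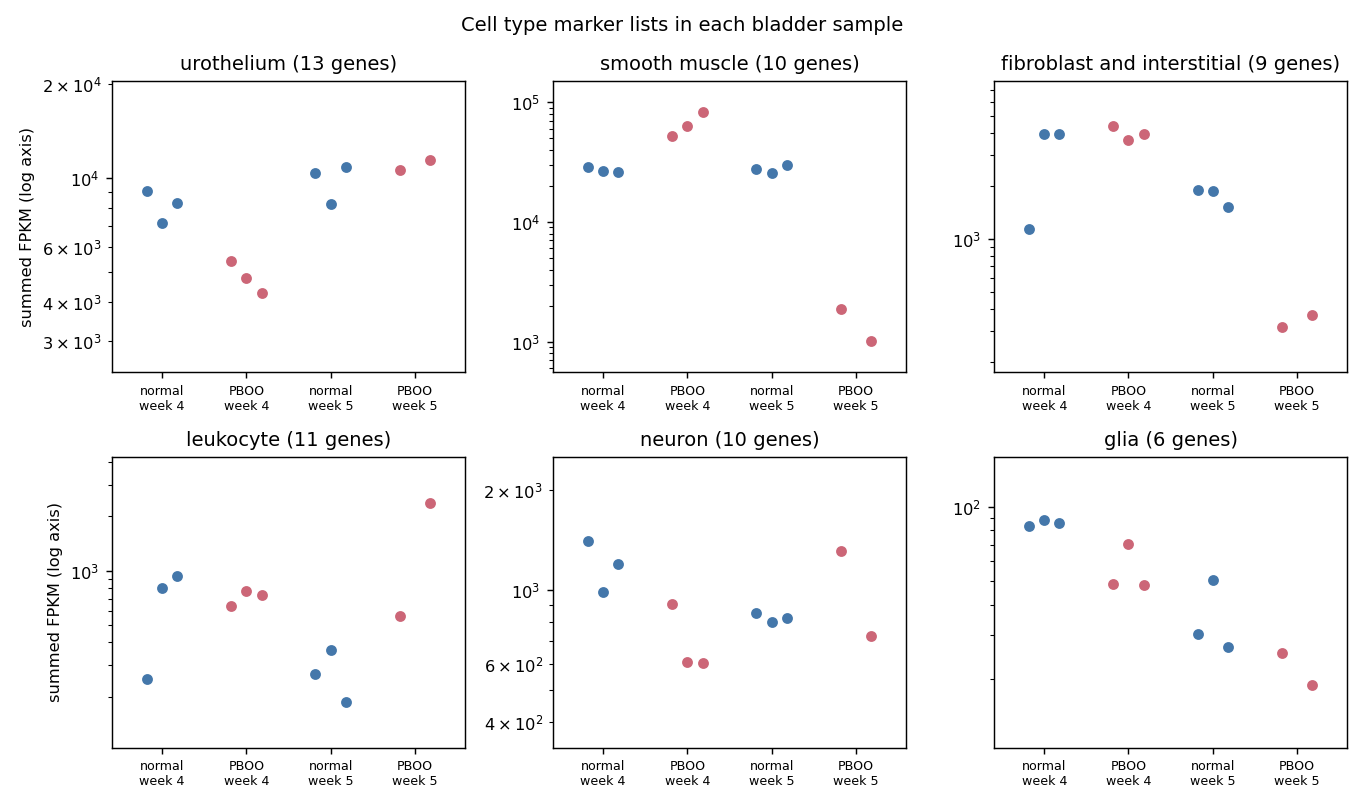
Summed FPKM (log axis) of 6 cell type marker lists in each of the 11 samples, with 1 point per sample, normal in blue and PBOO in red. The smooth muscle sums of the PBOO week 5 samples, 1885 and 1005 FPKM, lie below every other sample, and the leukocyte sum of PBOO replicate 2 at week 5, 2381 FPKM, lies above every other.

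At week 4, Asic4 was much lower in PBOO bladders, and the other 7 genes that could be fitted differed by less than 2-fold. Genes were compared with limma on log2(FPKM + 0.1), a scale that understates the difference of low genes, and counted where the unadjusted p was under 0.05 with at least a 2-fold difference. By this count 1 of the 8 genes that passed the filter of 0.5 FPKM was lower and none was higher, where 2.45% and 2.46% of all 11320 genes were. With an adjusted p under 0.05 in place of the unadjusted one, 1 gene, again Asic4, was lower, against 0.106% of all genes, and none was higher, against 0.265%. Every PBOO sample lay below every normal sample for 1 gene of the 8, where this held for 34.9% of all genes, and above for none, against 6.63%. The median log2 difference of the 8 genes was -0.02, and that of all genes was -0.25. Because the choice of genes used this contrast, and Asic4 passed the filter through the normal samples only, nothing is read from these shares.

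At week 5, 2 TRP genes were far higher in PBOO bladders, and Asic4 was again far lower. Of 9 genes that passed the filter, 2 were higher (Trpv2 and Trpm2) and 1 was lower (Asic4) at the same thresholds, where 9.82% and 12.6% of all 13685 genes were. With at least a 4-fold difference, the threshold of the study for this week, the same 3 genes were counted, against 3.59% of all genes higher and 6.88% lower. At an adjusted p under 0.05, Trpv2 alone was counted as higher and Asic4 as lower, where 7.91% and 11.4% of all genes were. Trpv2, Trpm2 and Trpm4 were higher in both PBOO samples than in every normal sample, which held for 35.3% of all genes, and Asic4 was lower in both, which held for 25.0%. The median log2 difference was 0.14 for the 9 genes and 0.12 for all genes. Asic4 again passed the filter through the normal samples only, and, as at week 4, nothing is read from these shares.

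**Figure D2:**
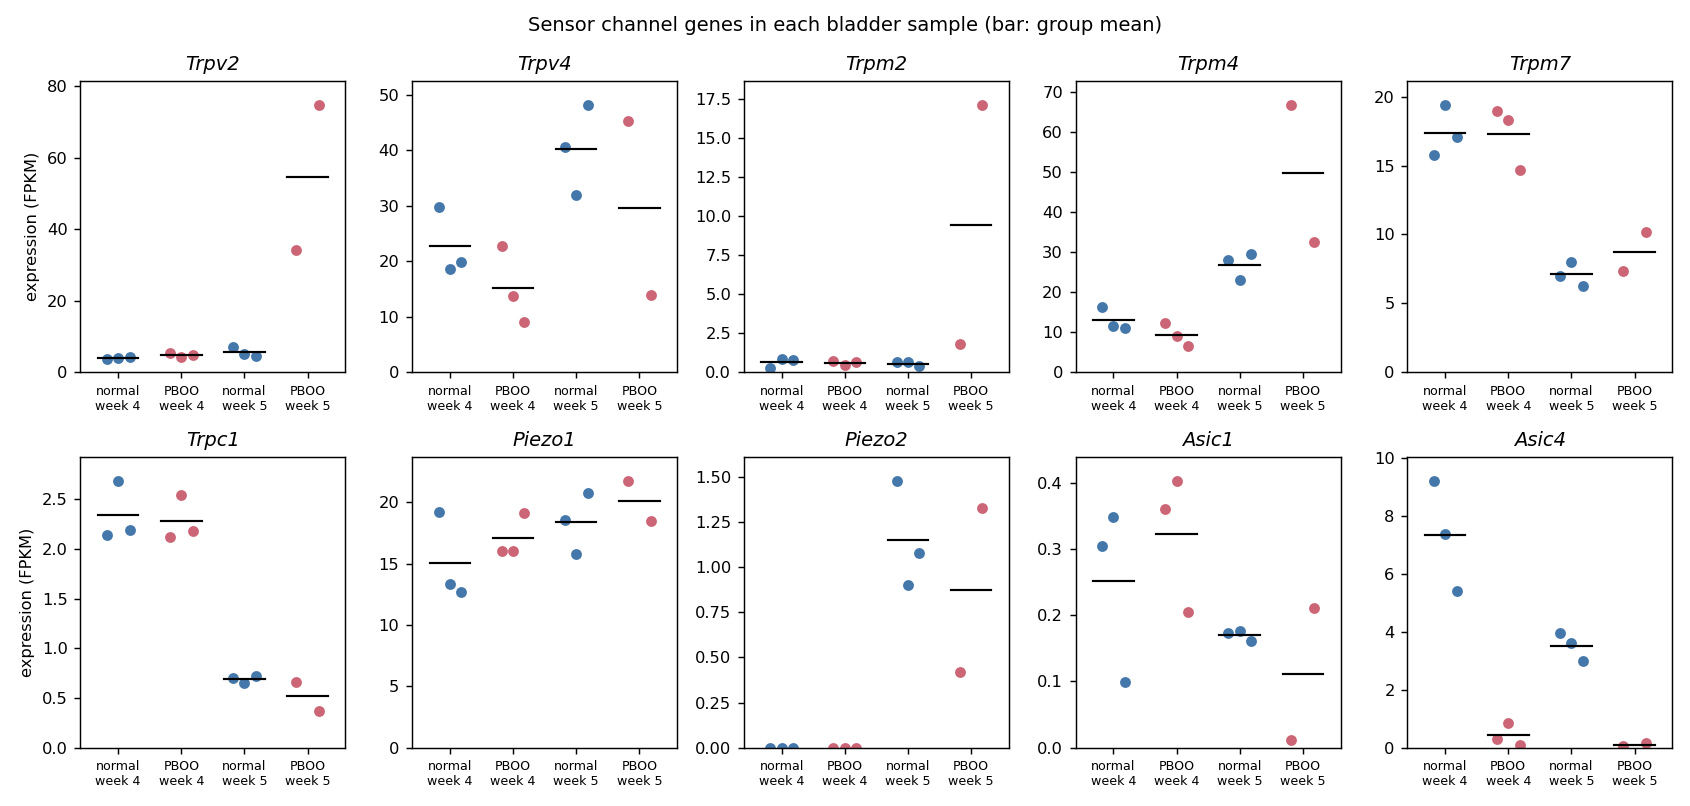
FPKM of the 10 channel genes in each of the 11 samples, with 1 panel per gene, 1 point per sample (normal in blue, PBOO in red) and a bar at the group mean, which is left out where all samples of a group are at 0. Asic4 is low in all 5 PBOO samples, and Trpv2 is high only in the PBOO samples of week 5, at 34.3 and 74.7 FPKM.

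Trpv2 is a calcium-permeable channel known from macrophages, muscle and sensory neurons. Its values were 3.55, 3.93 and 4.24 FPKM in normal and 5.45, 4.13 and 4.66 FPKM in PBOO samples of week 4. At week 5 they were 7.13, 5.18 and 4.59 FPKM in normal and 34.3 and 74.7 FPKM in PBOO samples. The week 4 groups overlapped at a narrow range, and both PBOO samples of week 5 lay above all 9 others. The log2 difference was 0.27 (SE 0.18) at week 4 and 3.17 (SE 0.37) at week 5, or 8.995-fold. Leaving out either PBOO sample of week 5 gave 2.61 or 3.73.

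Trpm2 is opened by ADP-ribose and oxidative stress and is known from phagocytes. It was low in normal bladders, at 0.253, 0.809 and 0.784 FPKM at week 4 and 0.651, 0.627 and 0.363 FPKM at week 5. In PBOO bladders it had 0.732, 0.440 and 0.629 FPKM at week 4 and 1.78 and 17.1 FPKM at week 5. Both PBOO samples of week 5 were thus above all other samples, but they differed from each other 9.61-fold. The log2 difference at week 5 was 3.17 (SE 0.92). Without PBOO replicate 2 it was 1.57, and without replicate 1 it was 4.77, so its size rested on replicate 2. At week 4 it was 0.07 (SE 0.49), with overlapping groups, and -0.38 without normal replicate 1.

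Over the 11 samples, after the mean of each week was taken off, Trpm2 was the channel gene most similar to Trpv2 (Pearson r = 0.91 on log2 values, a description over samples that share libraries and groups). Markers of leukocytes were also higher in the PBOO samples of week 5. Of 11 leukocyte markers, 9 were higher in both PBOO samples of week 5 than in every normal sample of that week and none was lower, where 35.3% and 25.0% of all genes were, with sums of 561 and 2381 FPKM against 187 to 360 FPKM. The pan-leukocyte gene Ptprc had 4.32 and 18.6 FPKM in the PBOO samples and 1.43 to 2.82 FPKM in the normal ones. The macrophage gene Cd68 had 73.4 and 63.1 FPKM against 4.05 to 11.4 FPKM, and the neutrophil gene S100a9 had 8.87 and 287 FPKM against 0.589 to 1.73 FPKM. No marker of the list was at 0 in all samples of a week. At week 4 the leukocyte sums were 639 to 772 FPKM in PBOO and 249, 804 and 934 FPKM in normal samples. All but that of normal replicate 1 lay above the 561 FPKM of PBOO replicate 1 of week 5. Trpv2 had 3.93 to 5.45 FPKM in the week 4 samples other than normal replicate 1. It had 34.3 FPKM in PBOO replicate 1 of week 5, and week cannot be told apart from handling. The part of leukocytes in the values of Trpv2 and Trpm2 was not tested.

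Trpv4 is a calcium-permeable channel that opens on swelling and warmth and is known from the urothelium. It had 29.8, 18.5 and 19.8 FPKM in normal and 22.7, 13.7 and 9.03 FPKM in PBOO bladders of week 4. At week 5 it had 40.6, 31.9 and 48.1 FPKM in normal and 45.2 and 13.8 FPKM in PBOO bladders. The groups overlapped at both weeks, and the PBOO samples of week 5 lay one within and one below the normal range. Its log2 difference was -0.65 (SE 0.34) at week 4 and -0.66 (SE 0.50) at week 5. The week 5 value was 0.19 without PBOO replicate 2 and -1.51 without replicate 1, so that its direction turned with 1 library.

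Trpm4 is a channel for sodium and potassium that opens on intracellular calcium. Its values at week 4 were 16.2, 11.6 and 10.98 FPKM in normal and 12.4, 9.14 and 6.43 FPKM in PBOO bladders, with overlapping groups and a log2 difference of -0.50 (SE 0.27). At week 5 it had 28.0, 23.0 and 29.5 FPKM in normal and 66.8 and 32.7 FPKM in PBOO bladders, so that both PBOO samples were higher. The log2 difference at week 5 was 0.81 (SE 0.31), or 1.75-fold, below the 2-fold threshold. It was 1.32 without PBOO replicate 2 and 0.29 without replicate 1.

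Within each sample, the ratio of Trpm4 to Trpv4 is free of the scaling of the library. In the 6 samples of week 4 it lay between 0.544 and 0.712, and in the normal samples of week 5 between 0.613 and 0.722. It was 1.48 and 2.36 in the PBOO samples of week 5, the only samples with more Trpm4 than Trpv4. Trpv2 relative to Trpv4 was 0.119 to 0.214 in normal and 0.240 to 0.516 in PBOO samples of week 4, and 0.0955 to 0.176 in normal and 0.758 and 5.40 in PBOO samples of week 5. This ratio was thus higher in every PBOO sample than in every normal sample of its week, though at week 4 the groups of each gene alone overlapped. The genes of both ratios were chosen on these contrasts and paired with earlier results known, so the ratios are a description only. How many other pairs of genes lie apart in this way was not computed. Of 13 urothelial markers, 8 were lower in every PBOO sample than in every normal sample of week 4 and none was higher, where 34.9% and 6.63% of all genes were. At week 5, PBOO samples had 0.940 and 0.383 FPKM of the superficial keratin gene Krt20 against 37.5 to 90.6 FPKM, and 780 and 2859 FPKM of the basal keratin gene Krt5 against 97.4 to 182 FPKM. Their part in the values of Trpv4 and Trpm4 was not tested.

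**Figure D3:**
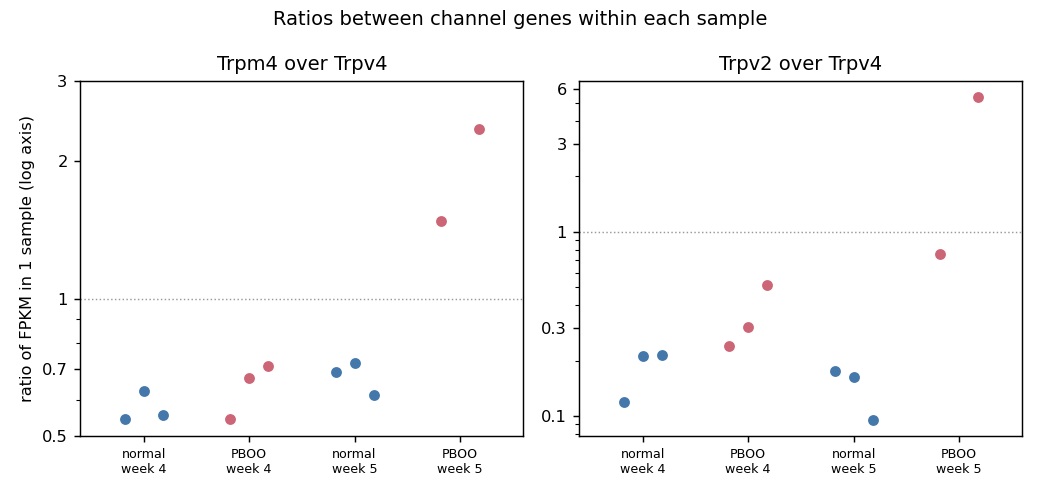
Ratio of Trpm4 to Trpv4 and of Trpv2 to Trpv4 within each sample (ratio of FPKM, log axis, with a dotted line at 1), with 1 point per sample, normal in blue and PBOO in red. The Trpm4 ratio stays between 0.544 and 0.722 in 9 samples and reaches 1.48 and 2.36 in the PBOO samples of week 5.

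Trpm7, a channel joined to a kinase that carries magnesium and calcium, and Trpc1, a subunit of calcium-permeable channels, differed little between PBOO and normal bladders. Trpm7 had 15.8, 19.4 and 17.0 FPKM in normal and 19.0, 18.3 and 14.7 FPKM in PBOO samples of week 4. At week 5 it had 6.99, 8.02 and 6.27 FPKM in normal and 7.34 and 10.2 FPKM in PBOO samples. Its groups overlapped at both weeks, with log2 differences of -0.01 (SE 0.15) and 0.29 (SE 0.20). Trpc1 had 2.14, 2.68 and 2.19 FPKM in normal and 2.12, 2.54 and 2.18 FPKM in PBOO samples of week 4, and 0.701, 0.653 and 0.717 FPKM in normal and 0.660 and 0.372 FPKM in PBOO samples of week 5. The log2 differences of Trpc1 were -0.03 (SE 0.21) and -0.40 (SE 0.39), also with overlapping groups. The small week 4 differences of both genes turned positive after median-ratio scaling of the samples, to 0.24 for Trpm7 and 0.21 for Trpc1.

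Piezo1, the stretch-gated channel of many epithelia and vessels, was the most even of the highly expressed genes. It had 19.2, 13.3 and 12.7 FPKM in normal and 16.1, 16.0 and 19.2 FPKM in PBOO samples of week 4. At week 5 the values were 18.5, 15.8 and 20.8 FPKM in normal and 21.7 and 18.5 FPKM in PBOO samples. All 11 samples thus lay between 12.7 and 21.7 FPKM, and the log2 differences were 0.20 (SE 0.19) and 0.14 (SE 0.16). Piezo2, the stretch-gated channel of touch and other sensory nerves, was listed at 0 in all 6 week 4 samples, as were Krt7 and Tmem63b, which reached 595 FPKM and 70.8 FPKM or more in every week 5 sample. At week 5 Piezo2 had 1.48, 0.901 and 1.08 FPKM in normal and 0.417 and 1.32 FPKM in PBOO samples, which overlapped. Its log2 difference was -0.52 (SE 0.52), which was 0.21 without PBOO replicate 1 and -1.25 without replicate 2.

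Asic4, an ASIC family member that is not known to carry a proton-gated current on its own, had the largest log2 difference of the 8 genes fitted at week 4 and of the 9 at week 5, with all samples and a pseudocount of 0.1 FPKM. Its values were 9.20, 7.36 and 5.40 FPKM in normal and 0.310, 0.855 and 0.101 FPKM in PBOO bladders of week 4. At week 5 they were 3.94, 3.62 and 2.97 FPKM in normal and 0.0593 and 0.163 FPKM in PBOO bladders. Every PBOO sample was below 1 FPKM and every normal sample at 2.97 FPKM or above, with no overlap at either week. The PBOO means of Asic4, 0.422 and 0.111 FPKM, lay under the filter of 0.5 FPKM, so it passed through the normal samples only. The log2 difference was -4.08 (SE 0.56) at week 4 and -4.13 (SE 0.35) at week 5, or 16.9-fold and 17.5-fold lower. With a pseudocount of 1 FPKM it was -2.56 and -2.02, and at week 5 Trpv2 (2.98) and Trpm2 (2.20) then had larger differences. Trpm2 also had a larger one without PBOO replicate 1 of week 5, 4.77 beside -3.77. Asic1, the proton-gated channel of many neurons, stayed below the filter at both weeks, at 0.305, 0.349 and 0.0997 FPKM in normal and 0.361, 0.403 and 0.205 FPKM in PBOO samples of week 4. It had 0.173, 0.176 and 0.162 FPKM in normal and 0.0112 and 0.211 FPKM in PBOO samples of week 5, and its groups overlapped at both weeks.

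The genes most similar to Asic4 over the 11 samples, after the mean of each week was taken off, were Pxmp2 (Pearson r = 0.97), St7l (0.97) and Syt1 (0.97). Of these, Syt1, the synaptic calcium sensor synaptotagmin 1, is on the list of neuron markers. The r values are a description over samples that share libraries and groups. As only the mean of the week was taken off, they in part restate the PBOO difference on which Asic4 was chosen. Syt1 had 5.26 to 6.51 FPKM in normal and 1.16 to 2.99 FPKM in PBOO samples of week 4, and 2.81 to 4.14 FPKM in normal and 0.973 and 1.57 FPKM in PBOO samples of week 5. Of the 10 neuron markers, 4 were lower in every PBOO sample than in every normal sample of week 4 and none was higher in this sense, where 34.9% and 6.63% of all genes were. At an unadjusted p under 0.05 with at least 2-fold, 1 of 8 tested was higher and 2 lower, beside 2.46% and 2.45% of all genes. Unlike Syt1, Tubb3 had 1.63, 4.14 and 3.82 FPKM in PBOO and 1.09 to 1.77 FPKM in normal samples. Nefm had 2.81, 10.3 and 8.09 FPKM against 2.72 to 5.98 FPKM. At week 5, 6 were lower and 1 was higher, where 25.0% and 35.3% of all genes were. Their sum was 602 to 910 FPKM in PBOO and 986 to 1402 FPKM in normal samples of week 4, and 728 and 1314 FPKM against 802 to 854 FPKM at week 5, most of it from Uchl1. Of 6 glia markers, 3 were lower in this sense at week 4 and none was higher, with sums of 48.0 to 70.3 FPKM against 83.2 to 88.5 FPKM. At week 5, 4 were lower and 1 was higher, with sums of 25.4 and 18.9 FPKM against 26.9 to 50.3 FPKM. The defining glia gene Sox10 was listed at 0 in PBOO replicate 2 of week 5, and had 0.328 FPKM in replicate 1 against 3.0 to 4.72 FPKM in normal samples. The part of nerve and glia in the values of Asic4 was not tested.

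**Figure D4:**
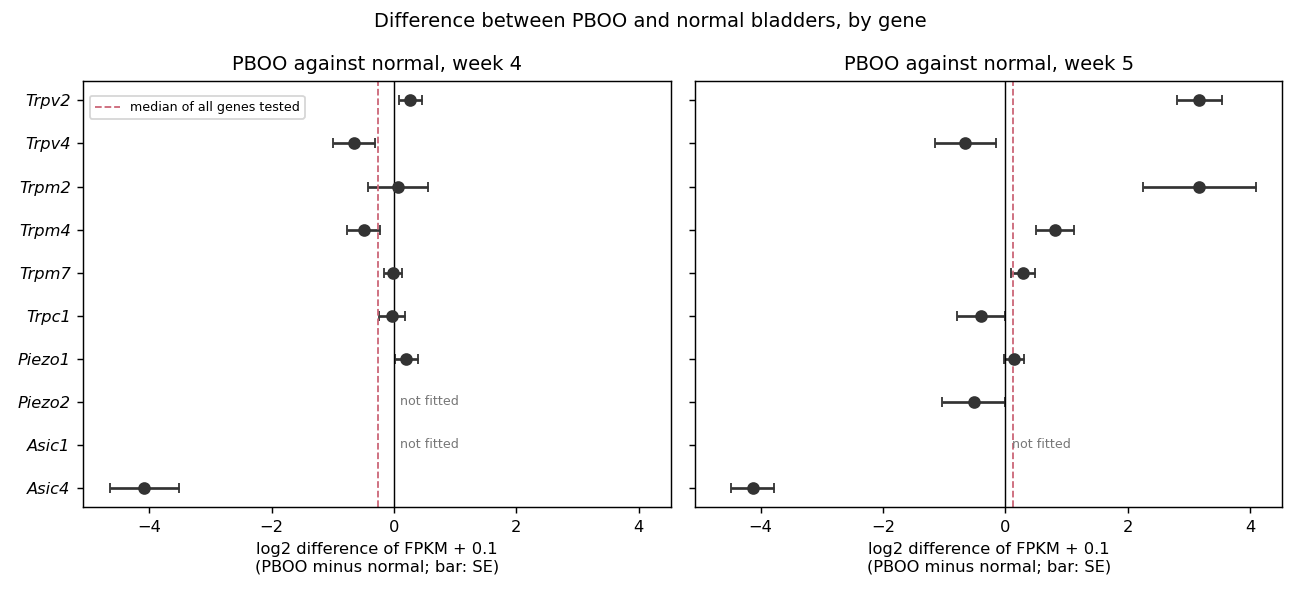
Log2 difference of FPKM + 0.1 between PBOO and normal bladders (PBOO minus normal) for each channel gene at week 4 and week 5, with bars of 1 SE from limma and a dashed line at the median of all genes tested, -0.25 and 0.12. Asic4 lies at -4.08 and -4.13, and Trpv2 and Trpm2 lie at 3.17 at week 5, while genes below the filter are marked as not fitted.

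The choice of genes did not use the comparison of normal bladders between the weeks, which was tested with limma over all 11 samples. Of the 8 genes tested, Trpm4 was higher at week 5, with a log2 difference of 1.06 (SE 0.30, limma adjusted p = 0.0115). Trpm7 was lower by a log2 difference of -1.28 (SE 0.17, limma adjusted p = 0.00013) and Trpc1 by -1.62 (SE 0.25, limma adjusted p = 0.000381). Each of these 3 genes had normal samples of week 5 that did not overlap with those of week 4. Trpv4 (0.83), Trpv2 (0.50), Piezo1 (0.30), Trpm2 (-0.06) and Asic4 (-1.01) had log2 differences that did not pass, with limma adjusted p of 0.128, 0.144, 0.176, 0.954 and 0.106. Among all 11296 genes, 7.05% were higher and 48.0% were lower at an adjusted p under 0.05, with a median log2 difference of -0.52, so that 1 of 8 higher and 2 of 8 lower is to be read against these shares. Relative to that median, the differences were 1.58 for Trpm4, -0.76 for Trpm7 and -1.098 for Trpc1. After median-ratio scaling, Trpv2, Trpv4 and Piezo1 passed as higher too, at 1.01, 1.35 and 0.82. Asic4 passed as lower in some other settings, among them a pseudocount of 1 FPKM (-0.86). Between 5578 and 5798 genes were listed at 0 in the samples of week 4 and between 1715 and 2329 in those of week 5, and whatever differed with the week in the handling of the samples cannot be told apart from it.

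Among other channel genes and their partners, 77 listed genes were in the table, and few of them passed the test at week 4. Of 50 tested, 5 were higher and 8 were lower at any fold where the unadjusted p was under 0.05, where 5.76% and 26.2% of all genes were. After median-ratio scaling the numbers were 9 and 2. None passed an adjusted p under 0.05 in limma, and no other tool was run. The median log2 difference was -0.20, against -0.25 for all genes. P2rx5, an ATP-gated channel subunit, was upregulated at the unadjusted threshold, with 0.829 ± 0.240 FPKM in normal and 1.94 ± 0.726 FPKM in PBOO samples (SD, n = 3), with a log2 difference of 1.104 (SE 0.36, limma adjusted p = 0.104). It no longer passed without PBOO replicate 2 (0.83), normal replicate 1 (0.95) or normal replicate 2 (1.06), or with a pseudocount of 1 FPKM (0.66). Scnn1b, the beta subunit of the epithelial sodium channel, which belongs to the same superfamily as the ASICs, was downregulated with 61.8 ± 7.07 FPKM in normal and 32.6 ± 16.0 FPKM in PBOO samples (SD, n = 3), and a log2 difference of -1.04 (SE 0.36, limma adjusted p = 0.111). It no longer passed without PBOO replicate 3 (-0.63) or normal replicate 1 (-0.96), with median-ratio scaling (-0.79) or quantile normalization (-0.85), or in 1 fit of all samples.

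Of 49 of these genes tested at week 5, 15 were higher and 11 lower at an unadjusted p under 0.05, where 24.6% and 18.8% of all genes were, and 13 and 9 passed an adjusted p under 0.05 in limma. The median was 0.04, against 0.12 for all genes. Of 21 other TRP channel genes, only Trpc6, Mcoln1 and Pkd2 passed the filter at week 5, and Pkd2 (polycystin 2) alone was downregulated, with a log2 difference of -0.89 (SE 0.19, limma adjusted p = 0.0200). At week 4 it was 1 of 5 that passed, upregulated by 0.42 (SE 0.13, limma adjusted p = 0.0957). Pkd2 was chosen after its values were seen, as the single TRP gene counted.

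ASIC and ENaC genes are listed together because they share a superfamily, and 1 of the 4 tested at week 5 was higher and 1 lower, where 24.6% and 18.8% of all genes were. Scnn1a, the alpha subunit of the epithelial sodium channel, had 13.7 and 5.87 FPKM in PBOO and 1.02, 4.90 and 0.896 FPKM in normal samples of week 5. Its log2 difference was 2.36 (SE 0.79, limma adjusted p = 0.0749), and it no longer passed without PBOO replicate 1 (1.75), normal replicate 1 (2.02) or normal replicate 3 (1.94). The gene that was lower, Asic2, a partner subunit of Asic1 (named after its values were seen, with a mean under 1 FPKM), had 0 and 0.238 FPKM in PBOO and 0.685 to 1.51 FPKM in normal samples, and a log2 difference of -2.53 (SE 0.69, limma adjusted p = 0.0430). It passed the filter through the normal samples only. Asic3 was below the filter, with overlapping groups of 0.167 and 0.399 FPKM in PBOO and 0.234 to 0.336 FPKM in normal samples.

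The list of other channels linked to stretch took in the Tmc genes as a family, and whether each member opens on stretch was not tested. Of 10 of its genes tested at week 5, 6 were higher and none lower at an unadjusted p under 0.05, where 24.6% and 18.8% of all genes were. The median log2 difference was 0.997 against 0.12 for all genes, and all 6 also passed an adjusted p under 0.05 in limma. The 6, named because they were counted, were Tmem63a, Tmem63b, Tmc4, Tmc5, Tmc8 and Kcnk4. Of these, Tmc5, singled out after its values were seen, passed the filter through the PBOO samples only, with averages of 1.41 FPKM in PBOO and 0.00706 FPKM in normal bladders. At week 4, 1 of 9 was lower and none higher, against 26.2% and 5.76% of all genes, with a median of -0.27. Kcnk4, a stretch-sensitive potassium channel also called TRAAK, had 4.77 and 2.45 FPKM in PBOO and 0.574, 1.43 and 0.680 FPKM in normal samples of week 5, a log2 difference of 1.92 (SE 0.48, limma adjusted p = 0.0332). It was 1.46 and no longer counted without PBOO replicate 1.

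Of 17 partners and regulators tested, 4 were higher and 6 lower at week 5, with a median log2 difference of 0.01, beside shares of 24.6% and 18.8% of all genes. At week 4, 2 were higher and 4 lower, with a median of -0.19, beside shares of 5.76% and 26.2%. Orai2, a subunit of the store-operated calcium channel, was upregulated, averaging 3.94 FPKM in normal (SD 0.967, n = 3) and 16.4 FPKM in PBOO bladders (SD 1.69, n = 2), a log2 difference of 2.06 (SE 0.24, limma adjusted p = 0.00292). Cav1, the caveolin of muscle and endothelial caveolae, was downregulated averaging 144 FPKM in normal (SD 15.3, n = 3) and 14.5 FPKM in PBOO bladders (SD 4.96, n = 2), a log2 difference of -3.34 (SE 0.23, limma adjusted p = 0.000612). Pkd1 (polycystin 1), the partner of Pkd2, had a log2 difference of -1.09 (SE 0.12, limma adjusted p = 0.0026). At week 4, Cav1 and Pkd1 were higher instead, by 0.76 and 0.38 at an unadjusted p under 0.05 (limma adjusted p = 0.0538 and 0.0917). Smooth muscle markers moved the same way at each week, as given above, and their part was not tested.

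For ATP release and purinergic receptors, 4 of 15 genes were higher and 3 lower at week 5, and 2 of 16 were higher and 2 lower at week 4, with medians of 0.02 and -0.22. The shares of all genes were 24.6% and 18.8% at week 5 and 5.76% and 26.2% at week 4. P2rx1, the ATP-gated channel of detrusor muscle, had 35.6 and 23.7 FPKM in PBOO and 498, 488 and 661 FPKM in normal samples of week 5. Of the genes of these 5 lists it had the largest decrease, a log2 difference of -4.22 (SE 0.23, limma adjusted p = 0.000328). Entpd1, an enzyme that breaks down ATP, had a log2 difference of -1.55 (SE 0.29, limma adjusted p = 0.0130), and the ATP and UTP receptor P2ry2 had -1.15 (SE 0.14, limma adjusted p = 0.00328). The ADP receptor P2ry1 was upregulated by 1.49 (SE 0.16, limma adjusted p = 0.00227) and the related enzyme Entpd3 by 1.5 (SE 0.34, limma adjusted p = 0.0244), which was 0.97 and below 2-fold with a pseudocount of 1 FPKM.

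**Figure D5:**
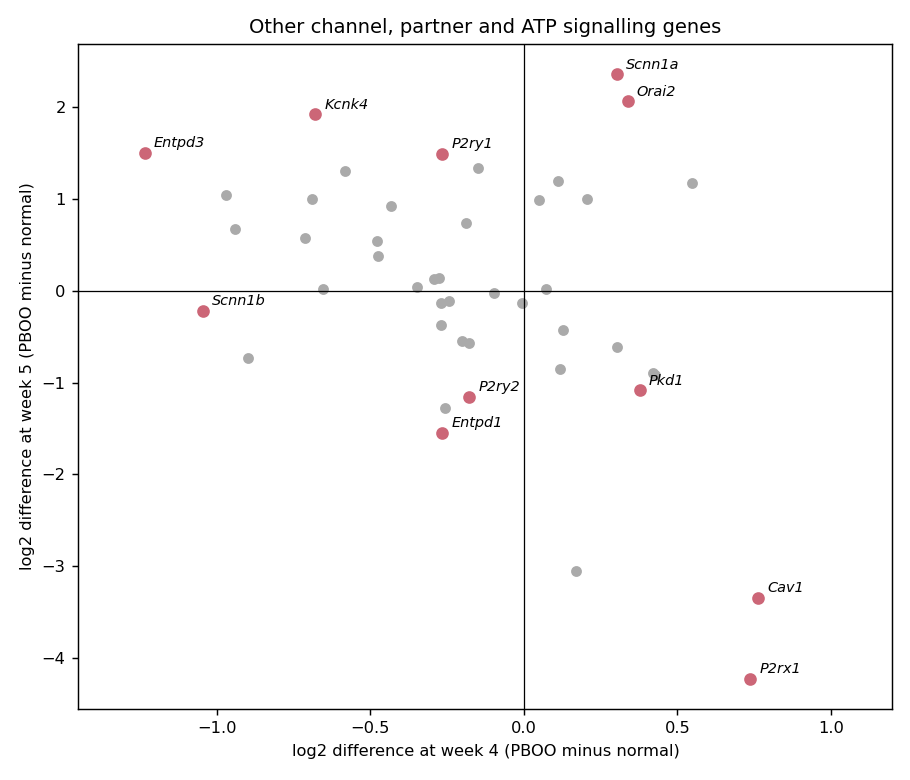
Log2 difference between PBOO and normal bladders at week 4 (horizontal axis) and week 5 (vertical axis) of the 45 listed genes fitted at both weeks, with 1 point per gene and the 11 genes named in the text by rule in red. Cav1 and P2rx1 lie at 0.76 and 0.74 at week 4 and at -3.34 and -4.22 at week 5, while Orai2 and Scnn1a lie above 2 at week 5.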

How the data were processed

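Bladder RNA of 11 rat samples in 4 groups was analysed. According to the methods, the authors trimmed paired reads, mapped them with HISAT2, assembled them with StringTie and gave FPKM per gene. The deposited FPKM values were used without further scaling. The submitters' processing notes name mm10, a mouse build, although the organism is rat, and the annotation and strand of counting are not given in the sources used here. Low values did not fall clearly on whole reads, so depth is unknown and the error of counting cannot be given. The sum of each column lay between 424961 and 564343 FPKM.

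The 10 genes, the lists and the tests were chosen with earlier results of these data known. Each week was fitted with limma 3.58.1 in R 4.3.3 (lmFit, eBayes with trend) on log2(FPKM + 0.1), keeping genes that averaged 0.5 FPKM or more over the samples of that week. The normal groups, and the difference between the weeks, were fitted over all samples. Adjusted p-values follow Benjamini and Hochberg over all genes tested. P-values measure only the spread between these samples. From the lists, genes are named with an unadjusted p under 0.05, at least 2-fold, an average of 1 FPKM or more and groups apart, at most 5 per direction and week, those of the largest difference. The count-based test of the study was not run, since the table holds no counts. Steps were tested on simulated data, and figures were drawn with matplotlib 3.10.9.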

Additional observations from a re-analysis of the deposited data

Results flagged for a closer look

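These results are given because the difference between PBOO and normal bladders was not alike at the 2 weeks. For Trpm4 the log2 difference at week 5 less that at week 4 was 1.30. It is given because all 3 PBOO samples of week 4 lay below the mean of the normal samples and both PBOO samples of week 5 above it, and the difference between the weeks was not tested, since the gene was chosen on these contrasts. Without PBOO replicate 1 the week 5 difference was 0.29, as given in the report.

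For the listed genes named in the report, the difference between the weeks was estimated as an interaction in limma over all 11 samples. These genes were named because they passed at 1 of the weeks, so the values are a description of selected genes, and no p is given. The week 5 difference less that of week 4 was 1.72 for Orai2 (SE 0.30), 2.60 for Kcnk4 (SE 0.79), 2.73 for Entpd3 (SE 0.70) and 1.76 for P2ry1 (SE 0.58). It was -4.96 for P2rx1 (SE 0.32), -4.10 for Cav1 (SE 0.28), -1.65 for P2rx5 (SE 0.59) and -1.46 for Pkd1 (SE 0.16). For Entpd1 and P2ry2 it was -1.28 (SE 0.39) and -0.98 (SE 0.29), and for Scnn1a and Scnn1b 2.05 (SE 0.96) and 0.83 (SE 0.82).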

How the results depend on the processing

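The 2 PBOO samples at week 5, an unknown depth, values listed at 0 at week 4 and the near lack of smooth muscle markers in PBOO at week 5 limit these results. The log2 differences of Asic4 at both weeks and of Trpv2 and Trpm2 at week 5 kept their direction under all alternatives run (pseudocounts of 1 and 0.01, no filter, a filter of 2 FPKM, 2 other normalizations, no trend, 1 fit of all samples, the replicate block, and leaving out each sample). They stayed counted wherever 2 or more samples per group were left. The week 5 difference of Trpm2 ranged from 1.57 to 4.77. All alternatives refit the values on which these genes were chosen, so they lend no separate support. An alternative filter of 2 FPKM leaves out the low genes, which then have no value.

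The listed genes counted at week 4, 5 higher and 8 lower, became 9 and 2 with median-ratio scaling, 8 and 4 with quantile normalization, and ranged from 2 to 6 higher and from 5 to 15 lower with a sample left out (15 lower without PBOO replicate 1, 2 higher without PBOO replicate 2, and 3 higher with 5 lower without normal replicate 3). At week 5 the channel genes counted stayed at 2 higher and 1 lower in all alternatives that kept both PBOO samples. Without PBOO replicate 1, Trpv4 was -1.51. Without PBOO replicate 2, Piezo2 was -1.25 and Trpm4 was 1.32, each beyond 2-fold in a fit with 1 PBOO sample. In the comparison of normal weeks, 1 gene counted as higher became 4 after either normalization. It became 2 with normal samples only or without normal replicate 1 of week 4. The 2 lower became 1 with the filter of 2 FPKM. They became 3 with normal samples only, with a pseudocount of 1 FPKM, or without PBOO replicate 2 or 3 of week 4, and the gene added was Asic4.

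Directions turned for small differences. At week 4 Trpm7 was 0.24 after median-ratio scaling, 0.20 after quantile normalization, and 0.10 or 0.07 without PBOO replicate 3 or normal replicate 2. Trpc1 was 0.21, 0.14, and 0.02 or 0.07 without PBOO replicate 1 or normal replicate 2. Trpm2 was -0.07 or -0.38 at week 4 without PBOO replicate 1 or normal replicate 1. With a sample left out, the week 4 values ranged from -0.079 to 0.10 for Trpm7, from -0.11 to 0.069 for Trpc1 and from -0.38 to 0.30 for Trpm2. At week 5 Trpv4 was 0.19 without PBOO replicate 2, and Piezo2 was 0.21 without PBOO replicate 1, in ranges from -1.51 to 0.19 and from -1.25 to 0.21. Between normal weeks, Trpm2 was 0.38 after median-ratio scaling, 0.90 after quantile normalization, and 0.18, 0.16 or 0.17 without normal replicates 2 or 3 of week 4 or 3 of week 5, in a range from -0.50 to 0.18. The cause was not tested.

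Same-numbered samples did not all deviate together (correlations of 0.154, -0.0241 and 0.232 at week 4, and -0.000813 and 0.124 at week 5), so the numbers are not taken as pairs. With the replicate block, 2 channel genes were higher between normal weeks in place of 1, the second being Trpv4 at 0.83, and the other counts stayed within 1.5 times.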

Other observations

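The marker lists not yet described were these. Of 7 endothelial markers, 3 were lower in every PBOO sample than in every normal sample of week 4 and none was higher, where 34.9% and 6.63% of all genes were, with sums of 129 to 136 FPKM against 133 to 179 FPKM, and 1 was higher at week 5, where 35.3% were, with 69.3 and 90.2 FPKM against 37.8 to 75.3 FPKM. Of 5 mast cell markers, 3 were higher in every PBOO sample of week 4, beside 6.63% of all genes. The mast cell sum was 73.2 to 89.6 FPKM there, and 6.16, 51.8 and 40.3 FPKM in the normal samples. At week 5 the mast cell sums were 0.845 to 4.02 FPKM in all 5 samples, where 1 gene was higher in PBOO, beside 35.3% of all genes. Of 7 skeletal muscle markers, 2 were higher at week 4, beside 6.63% of all genes. Their sums were 363, 976 and 3076 FPKM in PBOO, mainly from the skeletal actin gene Acta1, against 177 to 299 FPKM in normal samples. At week 5, 6 were lower and 1 was higher, beside 25.0% and 35.3% of all genes, with 27.4 and 27.5 FPKM against 207 to 234 FPKM. These lists share samples with all comparisons of the channel genes, and their part in those was not tested.

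Piezo1 relative to Trpm7 was 0.688 to 1.31 in the 6 samples of week 4 and 1.82 to 3.32 in the 5 samples of week 5, without overlap between the weeks, while PBOO and normal samples overlapped within each week.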
